A study of Mus musculus with 6 samples.

Results

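Fn1, Spp1, Thbs1, Plau, Plaur and Serpinb2 encode 3 adhesive proteins of the extracellular matrix and 3 components of the plasminogen activator system, and their expression was compared between macrophages with a mutant and with an intact RANK signalling domain. The genes were chosen by name, and each was represented by the probe sets that the platform annotation assigns to its symbol alone. This gave 8 probe sets for 5 of the 6 genes, out of 45037 probe sets for 18193 genes with a symbol of their own. The annotation used here lists no probe set under Spp1, the osteopontin gene, which is not analysed here. A further probe set that is annotated to Thbs1 together with another gene was left out by the rule.

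All cells were bone marrow macrophages of TNFR1-/-R2-/- mice on the c57BL/6 strain, which lack both TNF receptors, and all carried a retroviral chimeric receptor under puromycin selection. Its outer part was that of TNFR1, and its transmembrane and inner parts were those of RANK, the receptor that drives macrophages to become bone-resorbing osteoclasts. The WT chimeric receptor had an intact inner part (3 arrays), and the Mu chimeric receptor had inactivating mutations in the IVVY motif (3 arrays). Every culture, wild type and mutant alike, received M-CSF at 44 ng/ml and TNFα at 10 ng/ml for 24 hours, so no array shows unstimulated cells. Each array held pooled RNA of 6 dishes, and the labels describe independent assays. Mutant and wild-type arrays of one number were taken to come from the same of 3 assays. This pairing was inferred from the numbers and from the likeness of same-numbered arrays given under the processing. Whether each assay had mice of its own is not stated, and the spread between the arrays is that between these preparations.

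As background, fibronectin (Fn1), osteopontin (Spp1) and thrombospondin 1 (Thbs1) are secreted proteins through which cells attach to their surroundings by integrins and other receptors. Urokinase (Plau) cuts plasminogen to the broad protease plasmin, and it acts at the cell surface when held by its receptor (Plaur). Plasminogen activator inhibitor 2 (Serpinb2) is a serpin, a suicide inhibitor of serine proteases, that activated macrophages make, mostly within the cell. Macrophages and osteoclasts use both systems to adhere, to migrate and to remodel matrix.

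The arrays were alike in distribution, with median intensities of 8.86 to 9.38, so values near 9 lie in the lower, background-like part of each array. Of 13 macrophage marker symbols listed 12 were matched, and the other, Emr1, is the old symbol of the matched Adgre1. All 12 lay above the filter on dim probe sets, which asks for a value above the array's own median on at least 3 of the 6 arrays. Their summed intensity was 273859 to 298268. Of 11 osteoclast genes 9 lay above the filter, some of them only through the wild-type arrays, so the number of lower means among them is not given. The sums over all 11 were 1903 to 2798 for mutant cultures and 9456 to 28313 for wild-type cultures. Of 18 stromal markers 9 lay above the filter, and their levels set assay 3 apart in both groups, as given beside the results below. Only 1 of 8 neutrophil, 2 of 8 megakaryocyte, 2 of 8 endothelial and 1 of 7 lymphocyte markers lay above the filter. The bulk arrays cannot tell a smaller number of cells of a type from less RNA per cell.

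Fibronectin expression was higher in the mutant of every assay, while Thbs1 and Plaur went opposite ways in different assays, Serpinb2 was read in assay 3 alone and Plau lay at background. On the brighter Fn1 probe set (1426642_at) the mutant arrays of assays 1, 2 and 3 read 517, 430.5 and 1281, and the wild-type arrays read 212, 202 and 795. Both arrays of assay 3 were the highest of their group, and wild-type array 3 lay above mutant arrays 1 and 2, so the groups overlap even though each mutant array exceeded its own partner. The mean intensity of the mutant arrays was 743 ± 468, and that of the wild-type arrays was 403 ± 339 (SD, n = 3 each).

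Within the assays Fn1 was 2.43-fold, 2.13-fold and 1.61-fold higher in the mutant as a ratio of intensities. On the scale used for testing, log2(intensity + 16), the mean difference was 0.98 ± 0.68 (SE), or 1.97-fold, with a 95% interval from -0.73 to 2.69. That interval also holds the differences between assays. With the replicate number as a block, which compares each mutant array with its partner, the SE fell to 0.13 and the interval ran from 0.60 to 1.35. Neither fit passed after Benjamini-Hochberg adjustment over all 22497 kept probe sets (limma, adjusted p = 0.99998 without and 0.859 with the block). An exact permutation test of the 6 arrays without regard to assay gave p = 0.3 (two-sided), where 0.1 is the smallest value that 3 against 3 arrays can give. Leaving out single arrays moved the Fn1 difference between 0.51 (without mutant array 3) and 1.60 (without wild-type array 3). It was 1.13 without both arrays of assay 3.

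**Figure D1:**
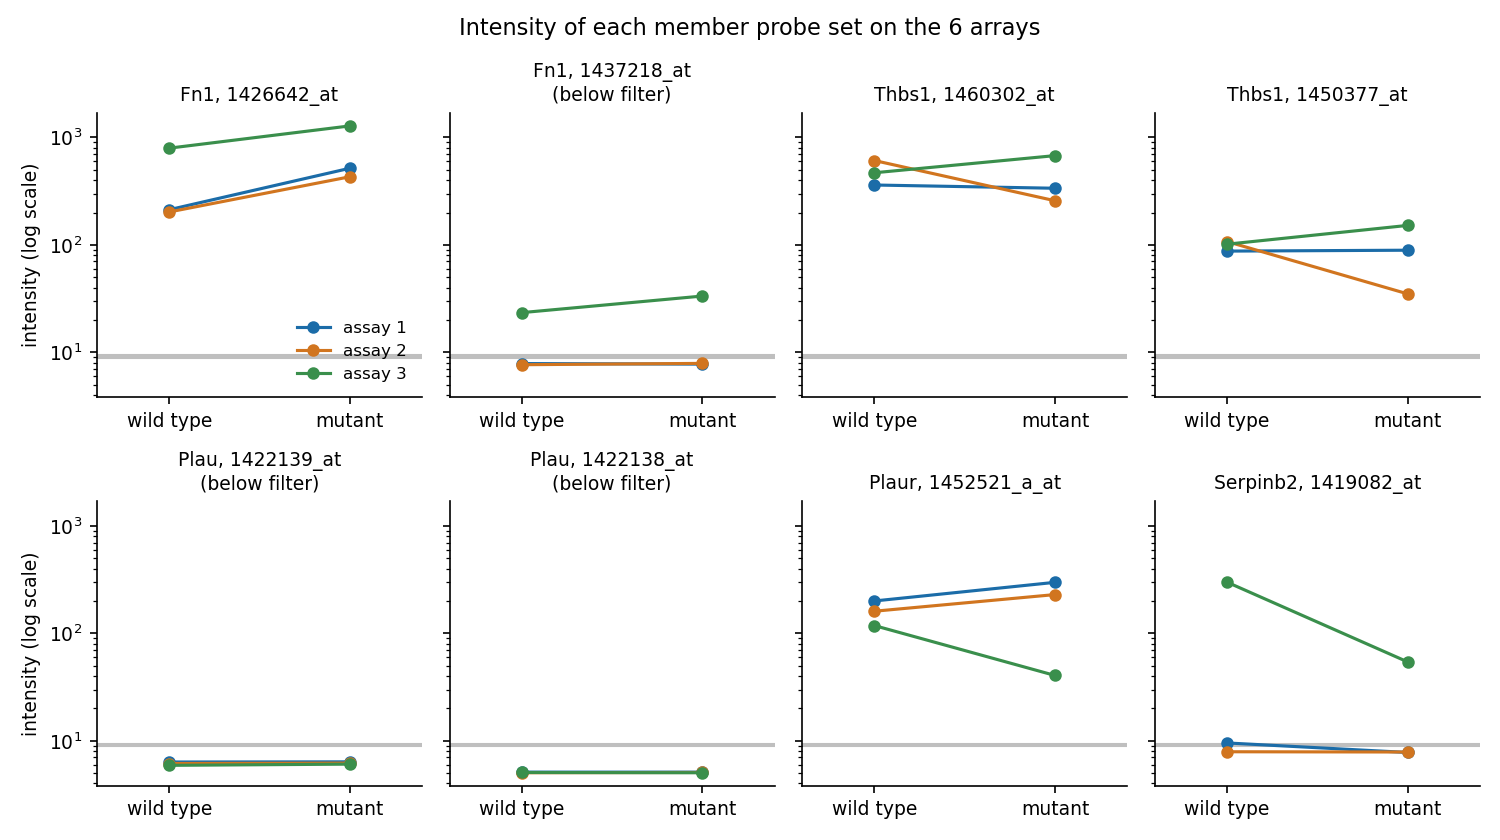
Intensity (log axis) of each of the 8 member probe sets in wild-type and mutant cultures, with a line joining the 2 arrays of each assay and a grey band for the range of the array medians (8.86 to 9.38). Only the brighter Fn1 probe set rises along all 3 lines by more than the thickness of the points, both Plau probe sets lie under the band, and Serpinb2 is far above the band in assay 3 alone.

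Fn1 stood out among all probe sets by its smallest within-assay difference. Ranked by the smallest of the 3 within-assay differences, Fn1 stood at rank 1 of 22497 probe sets, with a smallest difference of 0.68 on the log2 scale (assay 3), followed by Colec12, a scavenger receptor of the collectin family, at 0.56. Fn1 was thereby the only probe set at least 1.5-fold higher on the log2(intensity + 16) scale in every assay (0.00445% of all), against 62 at least 1.5-fold lower in every assay (0.276%). This ranking and this fold limit were chosen after the values were seen. Fn1 was among the probe sets past the limit in each of 6 other settings, at rank 1 without the filter, with the stricter filter (70th percentile), with a pseudocount of 64 and after quantile normalization, at rank 2 with a pseudocount of 1 and at rank 4 without a pseudocount. The number past the limit was 10 with a pseudocount of 1, 12 without one and 2 after quantile normalization. By the mean difference alone Fn1 ranked 21 from the top, and by the p of limma with the replicate block, in either direction, it ranked 29.

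**Figure D2:**
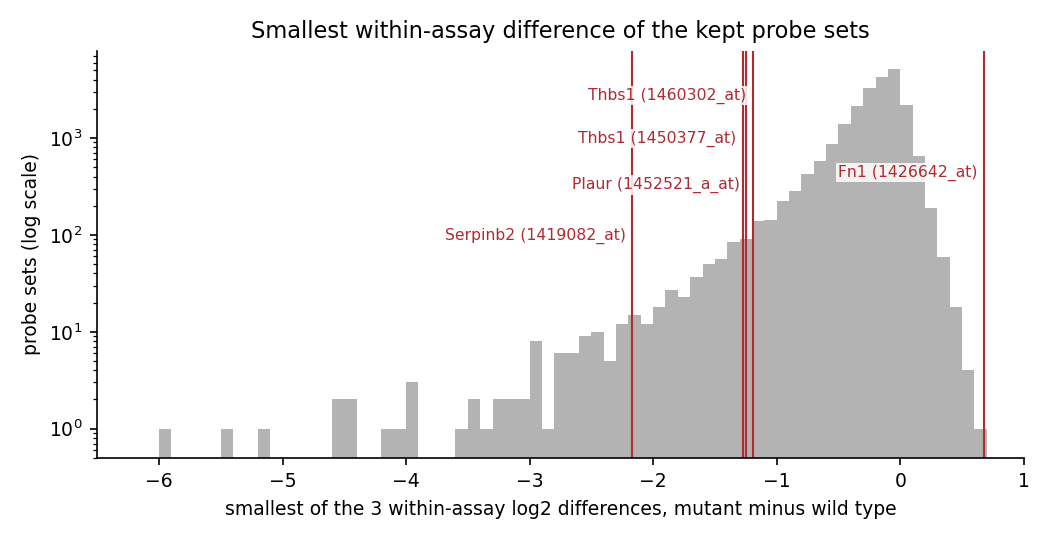
Histogram of the smallest within-assay log2 difference, mutant minus wild type, over the 22497 kept probe sets (count on a log axis), with red lines at the member probe sets above the filter. Fn1 at 0.68 forms the right-hand end, while both Thbs1 probe sets, Plaur and Serpinb2 lie between -2.17 and -1.19.

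The dimmer Fn1 probe set (1437218_at) fell below the filter. Mutant cultures gave 7.75, 7.88 and 33.4 in assays 1, 2 and 3, and wild-type cultures 7.85, 7.66 and 23.4. It thus rose above background in assay 3 alone, where it was 1.43-fold brighter in the mutant, and it carries no information on the assays in which the brighter probe set differed most.

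Stromal cells also make fibronectin, and their 9 markers above the filter, like Fn1, read highest in assay 3 in both groups. The within-assay differences of Fn1 were 1.22, 1.03 and 0.68 (log2) in assays 1, 2 and 3. The stromal markers above the filter had median differences of 0.05, 0.32 and 0.45. In assay 1 all of them but Acta2 read at most 15.7, where the added 16 presses a log2 difference towards 0. The order of these medians therefore cannot be set against that of the Fn1 differences. Some of these markers passed the filter only through a mutant array, such as Col3a1 through mutant array 2. That favours higher values in the mutant, so the number of higher means among them is not given. With no filter 5 of all 18 stromal markers were lower and the median was 0.15. Among those below the filter, Dcn, the proteoglycan decorin, read 4.61 on mutant array 3 and 62.9 on wild-type array 3. Pdgfra read 5.64 and 18.6 there and Cxcl12 9.94 and 16.99, like Dcn in the opposite direction to Fn1. In the same direction as Fn1 went Col5a1 (96.1 and 60.5), Col6a1 (26.6 and 23.0), Col6a2 (24.7 and 13.9) and Pdgfrb (52.2 and 40.6). Lum and Thy1 read at most 5.11 on any array. Acta2, smooth muscle actin, read 154 to 308 on the arrays of assays 1 and 2 and 2273 to 2928 in assay 3. The other 8 read at most 57.4 in assays 1 and 2 and 138 to 1719 in assay 3. Sparc, which binds collagen in connective tissue, read 11.96, 57.4 and 1325 in the mutant cultures of assays 1, 2 and 3 and 7.81, 17.3 and 1061 in their partners. Col3a1, a fibrillar collagen, read 7.18, 31.9 and 524 against 7.16, 8.002 and 380.3. In assay 1, where the Fn1 difference was 1.22 on the log2 scale, these 8 markers read at most 15.7 on either array. In assays 1 and 2 alone Fn1 was higher by 1.13 on the log2 scale. The median of the stromal list turned to -0.98 without mutant array 3, to -0.40 without wild-type array 1 and to -0.18 without wild-type array 2, each of which leaves an assay with 1 array. The part of stromal RNA in the Fn1 difference was not tested in any assay. The markers below the filter were named after their values were seen.

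**Figure D3:**
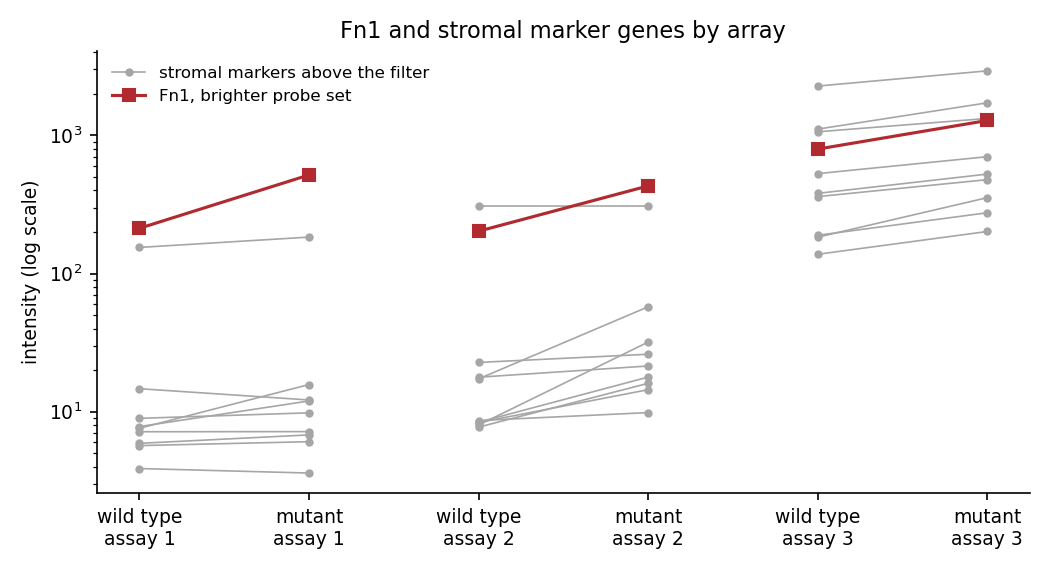
Intensity (log axis) of Fn1 (red squares) and of the 9 stromal markers above the filter (grey points) on the 6 arrays, with lines joining the arrays of an assay. Fn1 is above 200 on every array, whereas all markers except the brightest, Acta2, stay at or under 57.4 in assays 1 and 2 and reach at least 138 in assay 3.

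Thrombospondin 1 showed no common direction. The brighter Thbs1 probe set (1460302_at) read 337, 258 and 677 on mutant arrays 1, 2 and 3 and 361, 609.9 and 469 on the wild-type arrays. It was therefore nearly level in assay 1, lower in the mutant of assay 2 and higher in the mutant of assay 3, with log2 differences of -0.10, -1.19 and 0.52. The dimmer Thbs1 probe set (1450377_at) read 89.1, 35.0 and 152 against 87.5, 107 and 101. Its within-assay differences of 0.02, -1.27 and 0.51 are close to those in assays 2 and 3. In assay 1 both probe sets were nearly level, with opposite signs. On the brighter probe set the mutant mean was 424 ± 223 and the wild-type mean 479.9 ± 125 (SD, n = 3 each). The probe set left out by the rule (1421811_at, annotated to Pald1 and Thbs1) was brighter than both. It read 2998, 3497 and 5324 on the mutant arrays and 3361, 5247 and 3841 on the wild-type arrays. Its within-assay log2 differences were -0.16, -0.58 and 0.47.

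The mean log2 difference of Thbs1 was -0.26 ± 0.40 SE on the brighter and -0.25 ± 0.44 SE on the dimmer probe set (limma, adjusted p = 0.99998 each). The interval of the former, -1.26 to 0.75, leaves room for a change of more than 1.5-fold either way, and so does the interval with the replicate block, -1.27 to 0.75. The sign rests on assay 2: the difference was 0.026 without mutant array 2 and 0.21 without both arrays of assay 2. Platelets and their precursors can also make thrombospondin 1, and their part in these values was not tested. Pf4, platelet factor 4, read 10628, 15254 and 5197 on the mutant arrays and 9857, 9592 and 4460.3 on the wild-type arrays, higher in the mutant of every assay. Of the 8 megakaryocyte and platelet markers Vwf was the only other one above the filter, with log2 differences of -0.27, 0.62 and -0.07. Ppbp, below the filter, read 5.81, 5.93 and 5.73 on the mutant arrays and 10.8, 5.51 and 26.5 on the wild-type arrays. Itga2b, Gp9, Gp1bb, Gp5 and Gp6 read at most 6.12 on any array.

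Urokinase mRNA was not seen above background. The Plau probe set 1422139_at read 6.36, 6.19 and 6.06 on the mutant arrays and 6.34, 6.14 and 5.90 on the wild-type arrays. The other one, 1422138_at, read between 5.04 and 5.10 on all 6 arrays. Neither exceeded the median of any array, at the 32.8th to 36.9th and the 19.6th to 21.1st percentile, so they entered no test over the kept probe sets, and no fold is given. Such readings give only an upper bound on the level of Plau in both groups.

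The urokinase receptor was read above the filter on every array. Plaur (1452521_a_at, the 1 probe set of the gene) read 299, 229.6 and 40.6 on mutant arrays 1, 2 and 3 and 200.2, 161 and 118 on the wild-type arrays. Mutant array 3 was the lowest of all, and mutant arrays 1 and 2 were the highest. Within assays 1 and 2 Plaur was 1.49-fold and 1.43-fold higher in the mutant, and within assay 3 it was 2.91-fold lower. The means were 189.6 ± 134 and 159.7 ± 41.0 (SD, n = 3 each).

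On the log2 scale the Plaur difference was -0.08 ± 0.69 SE, with an interval of -1.82 to 1.67 (limma, adjusted p = 0.99998). With the block the interval was -1.25 to 1.10 (limma, adjusted p = 0.999). Its sign depended on the scale and on single arrays: it was 0.014 with a pseudocount of 64, 0.69 without mutant array 3, 0.09 without wild-type array 1 and 0.51 without both arrays of assay 3.

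Plasminogen activator inhibitor 2 was read only in assay 3. Serpinb2 (1419082_at, the 1 probe set of the gene) read 54.3 on mutant array 3 and 299.8 on wild-type array 3, a 5.52-fold lower level in the mutant as a ratio of intensities. The mutant arrays of assays 1 and 2 read 7.78 and 7.86, and the wild-type arrays 9.54 and 7.90, all within the background range. It passed the filter on exactly 3 arrays, the third being wild-type array 1, which lay just above the median of its array (9.38).

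The mean log2 difference of Serpinb2 was -0.76 ± 1.15 SE, with an interval of -3.66 to 2.14 (limma, adjusted p = 0.99998), and the replicate block gave -2.17 to 0.66 (limma, adjusted p = 0.863). The within-assay differences were -0.10, -0.003 and -2.17, so the mean rests on a single assay. With the filter at percentile 70, or without mutant array 3, wild-type array 1, wild-type array 3, or both arrays of assay 1 or 3, the probe set no longer passed the filter.

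**Figure D4:**
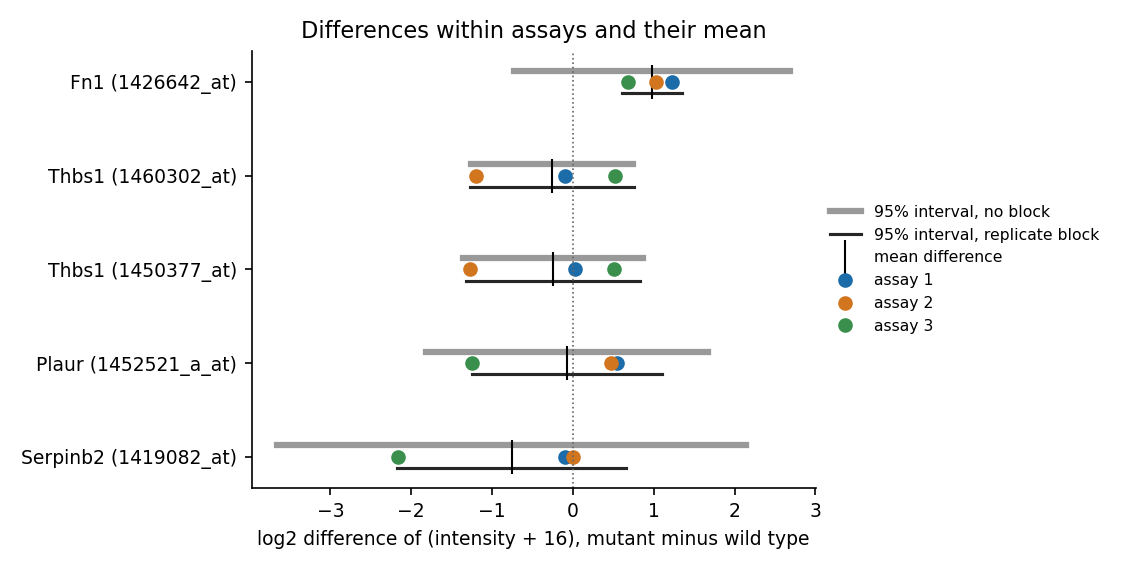
Log2 differences of (intensity + 16), mutant minus wild type, of the 5 member probe sets above the filter: coloured points are the 3 assays, the black tick is the mean, and the bars are limma's 95% intervals without (grey) and with (black) the replicate block. Only for Fn1 do all points lie to the right of 0, and only its interval with the block, 0.60 to 1.35, leaves out 0.

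In the mutant of assay 3 both the inhibitor Serpinb2 and the receptor Plaur had lower levels, whereas in assays 1 and 2 Serpinb2 was at background and Plaur was higher. The 250 bases before the transcription start of these 2 genes are shown because they are the members with a shared direction in that assay and an entry in the RefSeq promoter table (build GRCm38.p6, which also has Spp1). They are printed 5′ to 3′ on the plus strand, with motif matches in capitals. The Serpinb2 window is chr1:107511173-107511422, the first of 2 listed starts, and the Plaur window is chr7:24462233-24462482.
Serpinb2: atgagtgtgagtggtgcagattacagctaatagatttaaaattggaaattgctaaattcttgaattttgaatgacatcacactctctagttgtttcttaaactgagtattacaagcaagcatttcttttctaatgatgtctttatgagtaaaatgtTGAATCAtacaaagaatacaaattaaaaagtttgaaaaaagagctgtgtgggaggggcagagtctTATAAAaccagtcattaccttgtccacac
Plaur: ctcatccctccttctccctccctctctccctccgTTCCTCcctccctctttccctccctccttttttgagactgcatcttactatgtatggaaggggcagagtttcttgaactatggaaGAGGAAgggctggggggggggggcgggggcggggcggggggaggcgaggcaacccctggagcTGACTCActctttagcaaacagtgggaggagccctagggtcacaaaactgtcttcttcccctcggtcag
The motifs searched were the AP-1 site TGANTCA, the PU.1 core GAGGAA and the NF-kB consensus, each on both strands, and the TATA box TATAAA on the gene's strand. None of the matches overlap. The AP-1 letters, which read alike on both strands, begin 94 bases before the start in Serpinb2 and 69 bases before it in Plaur, and 6.73% of all 32536 windows of this length hold such a match. The TATA box lies 29 bases before the start in Serpinb2 and is found in 7.55% of windows. The PU.1 core occurs in Plaur on each strand, 216 and 131 bases before the start, and in 23.4% of windows. The NF-kB consensus, held by 7.28% of windows, had no match in these letters. A match describes the sequence and shows no binding.

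Read against all probe sets, the counts over the members were small. Of the 4 members above the filter, none passed limma over all 22497 probe sets, where 0% passed with or without the block. At an unadjusted p under 0.05, limma without the block gave 52 higher (0.231%) and 146 lower probe sets (0.649%), and none was a member. With the block it gave 563 higher (2.5%) and 626 lower (2.78%), and Fn1 was among the higher (unadjusted p = 0.0020). No member was free of overlap between the groups, against 1.47% higher and 1.59% lower of all probe sets. In every pair Fn1 was higher, as were 13.8% of all probe sets, and Serpinb2 lower, as were 11.7%. By the mean, Fn1 was higher (51.7% of all probe sets) and Thbs1, Plaur and Serpinb2 were lower (48.3%).

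The other genes of plasminogen activation showed no common shift. Of 23 listed, 19 were matched and 9 lay above the filter, of which 0 passed limma over all probe sets. On the mean 6 were lower and 3 higher, where 48.3% of all probe sets were lower. The median log2 difference was -0.17, where all kept probe sets had 0.004. Plat, the tissue plasminogen activator, and Plg, plasminogen itself, read at most 8.02 and 3.79 on any array, so like urokinase they were not read above background. Anxa2 and S100a10, which together form a plasminogen receptor, were bright. Anxa2 read 6356, 6338 and 3608 on the mutant arrays and 6494, 7864 and 5824 on the wild-type arrays, lower in every pair, with a mean log2 difference of -0.34 ± 0.27 SE. Vldlr, a receptor that takes up urokinase bound to its inhibitor, read 13.1, 41.6 and 159 against 24.2, 1218 and 188, so its difference of -1.71 ± 1.39 SE came mostly from wild-type array 2. Lrp1, a scavenger receptor for the same complexes, read 5833, 5896 and 1259 against 5163, 2952 and 1163. St14, the protease matriptase (-0.15 ± 0.10 SE), and Serpini1, neuroserpin (0.08 ± 0.09 SE), had no overlap between the groups, but no array read above 16.1 for either.

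The other serpins of clade B, the group of Serpinb2, mostly inhibit proteases within cells. Of 14 matched, 7 lay above the filter, 0 passed limma over all probe sets, and all 7 had a lower mean, where 48.3% of all probe sets did. Serpinb1a, Serpinb3a and Serpinb6a were lower by no more than 0.04 on the log2 scale, and with no filter 10 of 14 were lower with a median of -0.03. The median of the 7 was -0.20, with pair medians of -0.09, 0.01 and -0.43. Without both arrays of assay 3, 4 of 6 were lower. Serpinb6b read 185, 129 and 21.4 on the mutant arrays and 151, 68.5 and 182 on the wild-type arrays, and Serpinb9, an inhibitor of granzyme B, read 361, 210.2 and 212 against 344, 143 and 609. Both were higher in the mutant of assays 1 and 2 and lower in that of assay 3, the same directions as Plaur. Serpinb8 differed by -0.28 ± 0.21 SE and Serpinb1b, which read at most 15.5, by -0.20 ± 0.13 SE.

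The Ly6 family, whose fold Plaur shares, had 3 of 14 matched genes above the filter, and 0 passed limma over all probe sets. Ly6i read 17.7, 7.72 and 15.4 on the mutant arrays and 35.1, 25.6 and 71.1 on the wild-type arrays, without overlap (log2 difference -0.96 ± 0.32 SE). Ly6e, a surface protein that interferon induces, differed by -0.33 ± 0.37 SE and Cd59a, an inhibitor of complement, by 0.11 ± 0.20 SE.

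Other adhesive and matricellular proteins had a higher mean in 10 of the 14 genes above the filter, out of 35 matched, where 51.7% of all probe sets had a higher mean. Of the 14, 0 passed limma over all probe sets. The median was 0.16, but -0.02 without mutant array 2, 0.02 under the 70th percentile filter, 0.001 with no filter. The list shares Sparc and Postn, 2 of its 10 higher genes, with the stromal markers. Postn exceeded the array median on every mutant array but, among the wild-type arrays, on array 3 only, so the filter favoured a higher mean there. With no filter 14 of the 35 were lower. Lgals1, the secreted lectin galectin 1, read 32747, 38437 and 26552 on the mutant arrays and 28547, 32272 and 25152 on the wild-type arrays, higher in every pair as Fn1 was (0.18 ± 0.18 SE). Edil3, an integrin-binding protein, was lower without overlap, at 107, 109 and 59.4 against 114, 142 and 127 (-0.45 ± 0.23 SE). Ecm1 differed by -0.30 ± 0.22 SE and the basement membrane gene Nid2, which read at most 19.7, by 0.29 ± 0.15 SE. Thbs2, a relative of Thbs1 below the filter, read 36.6 on mutant array 3 and 17.7 on wild-type array 3. Vtn, the plasma adhesive protein vitronectin, and the thrombospondin genes Thbs3 and Thbs4 had means at most 6.00 in either group.

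Receptors of the member proteins went both ways. Of 23 genes 19 lay above the filter, and 0 passed limma over all probe sets. On the mean 10 were lower and 9 higher, where 48.3% of all probe sets were lower. The median was -0.003, or -0.13 without wild-type array 3 and 0.14 without wild-type array 1. Cd36, a thrombospondin receptor, read 17889, 14951 and 8898 on the mutant arrays and 14892, 8972 and 5327 on the wild-type arrays, higher in every pair (0.58 ± 0.46 SE). Itga5, which pairs with Itgb1 as the classic fibronectin receptor, read 648, 684 and 102 against 372, 454 and 128, higher in the mutant of assays 1 and 2 and lower in that of assay 3. Itgb8 was read in 1 culture, at 181 on wild-type array 3 and at most 15.3 elsewhere (-1.10 ± 0.82 SE). Sdc1, a matrix-binding proteoglycan, differed by -0.81 ± 0.43 SE and Igf2r, which binds Plaur, by -0.50 ± 0.31 SE. Itga5 and Lrp1 were named after their values were seen.

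**Figure D5:**
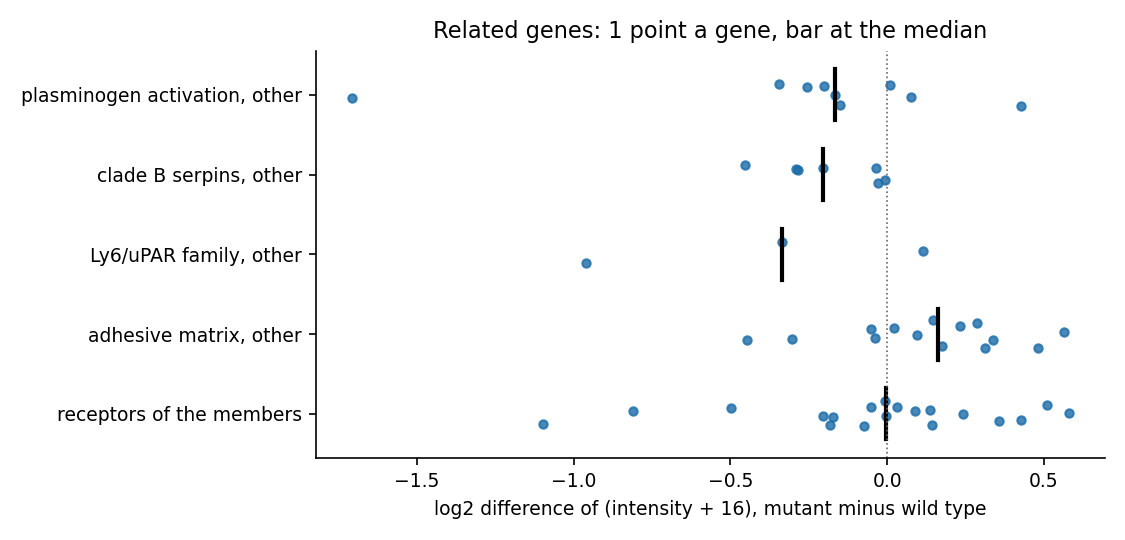
Log2 difference of (intensity + 16), mutant minus wild type, of each related gene above the filter, by list, with a bar at the list's median. The medians are -0.17 for plasminogen activation, -0.20 for clade B serpins, -0.33 for the Ly6 family, 0.16 for adhesive matrix and -0.003 for receptors, and the points of all lists but the clade B serpins lie on both sides of 0.

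The genes closest to each member in pattern were found by the root mean square difference of centred log2 values over the 6 arrays, among 10371 genes above the filter. For Fn1 these were Mex3b, an RNA-binding protein (0.27), Rcn3, a calcium-binding protein of the secretory pathway (0.39), and Cyp4f18, a cytochrome P450 (0.39), where the median gene stood at 0.98. Mex3b read 232, 239 and 608 on the mutant arrays and 166, 122 and 521 on the wild-type arrays, and so was also higher in every pair. For Thbs1 they were Lpgat1, H3c4 and Pilrb1 (0.16 each, median 0.55). For Plaur they were Slamf9 (0.20), Ybx3 (0.21) and Lrrc20 (0.22), against a median of 0.79. Slamf9 read 1439, 1060.1 and 230.04 in the mutant and 672, 574 and 499 in the wild type. For Serpinb2 they were Isg20, an exonuclease (0.33), the chemokine gene Cxcl13 (0.37) and the GTPase gene Gbp6 (0.40), against a median of 1.43. These likenesses come from 6 arrays that share 3 assays, so a common assay pattern enters each of them.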

How the data were processed

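Gene expression was measured on 6 Affymetrix Mouse Genome 430 2.0 arrays. The deposited values are intensities on a linear scale. GCOS and GCRMA are named in the submitters' processing notes, and versions and order are not given in the sources used here. GCRMA-type background correction presses dim probe sets towards a floor, where changes cannot be read.

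Of 45101 probe sets 64 controls were left out. The annotation gave 1 symbol to 34945 of the rest, several to 932 and none to 9160. Values were taken as log2(intensity + 16). Probe sets above the median of their array on at least 3 arrays were kept (22497). Mutant minus wild type was tested, two-sided, with limma 3.58.1 in R 4.3.3 without a block, adjusted by Benjamini-Hochberg over all kept probe sets at 0.05. The steps were tested on simulated data. A gene was its brightest probe set. The number of arrays limits the precision.

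The members and lists were chosen with earlier results of these data known. Named genes were the members, the 4 kept genes of each related list with the smallest p (3 in the Ly6 family), Sparc and Col3a1, and the 3 genes nearest to each member; any other gene was chosen after its values were seen. After each group mean was removed, same-numbered arrays correlated at 0.797, 0.671 and 0.845 and others at -0.618 to -0.0138. Removing the mean makes the deviations of a group cancel out, which by itself pushes the latter values down when the former are positive. The labels describe independent assays, and the numbers were treated as pairs. Alternatives were other pseudocounts, filters, blocks, quantile normalization, probe set means and left-out arrays.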

Additional observations from a re-analysis of the deposited data

How the results depend on the processing

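With a random replicate block limma called 1 probe set, not a member's, and with the replicate block as a fixed term 0, as in the fit without a block and in each fit without 1 array or 1 assay. The replicate block changed no call of a member; it left the differences at 0.98 (Fn1), -0.26 (Thbs1), -0.08 (Plaur) and -0.76 (Serpinb2). No member passed in any setting run, with adjusted p by limma of at least 0.859. Fn1 kept its direction in all 18 alternatives, from 0.51 to 1.60 without single arrays. Serpinb2 kept its direction in the 12 alternatives in which it passed the filter, from -1.39 to -0.50. Thbs1 ranged from -0.64 to 0.026 without single arrays and was 0.21 without both arrays of assay 2. Plaur ranged from -0.55 to 0.69 without single arrays, and was 0.51 without both arrays of assay 3 and 0.014 with a pseudocount of 64. The setting without a pseudocount was added after seeing the data and changed no direction. Of 142 list medians under alternatives, over 8 lists with at least 3 genes, 29 moved by at least the spread between pairs. Dim signal limits Plau, the second Fn1 probe set and Serpinb2 in assays 1 and 2.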
